A study of Mus musculus with 15 samples.

Results

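The cytosolic translation initiation and elongation factors were examined in mouse skeletal muscle as a set of genes taken by symbol: protein-coding, autosomal genes named Eif1 to Eif6 or Eef1 and Eef2, with every subunit and paralog and with the kinase Eef2k. Of 73 genes with such symbols, 54 were kept out of the 39179 genes counted in each mouse. The 19 left out were 3 genes on a sex chromosome, 6 genes that are not protein-coding, 6 genes left out by name (Eif3j1, Eif3j2 and the 4 Eif2ak kinases) and 4 methyltransferases that modify the factors. Of the 54, 7 are regulators or relatives taken in by their symbol rather than factors (Eif4ebp1, Eif4ebp2, Eif4ebp3, Eif4enif1, Eif1ad, Eef1e1 and Eef2k).

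RNA of quadriceps muscle had been sequenced from 15 C57BL/6 mice, each 1 sample. Wild-type mice (Mrps5 WT) numbered 4 at 3 mo and 3 at 19 mo, and V338Y mice numbered 4 at each age. V338Y mice were homozygous for an exchange of 1 amino acid in MrpS5, a protein of the mitochondrial ribosome, which the study uses as a model of mistranslation in mitochondria. The factors described here serve the ribosome of the cytosol and not that of mitochondria.

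Cytosolic protein synthesis starts when eIF2 brings the initiator tRNA to the small ribosomal subunit, which eIF1, eIF1A, eIF3 and eIF5 hold in a state able to scan, while eIF4E, eIF4G and eIF4A load the mRNA by its cap. eIF2B recharges eIF2 with GTP, and the 4E-binding proteins keep eIF4E from eIF4G when the kinase mTOR is inactive. During elongation eEF1A delivers the aminoacyl-tRNAs, eEF1B recharges eEF1A, eEF2 moves the ribosome along and eIF5A helps it past difficult peptide bonds. Muscle fibres are known for replacing the eEF1A1 form by eEF1A2 after birth.

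The libraries held between 8250653 and 18968132 counts, and the 54 genes took between 0.629% and 0.797% of them. All 7 markers of muscle fibres were detected in every group. Their summed level lay between 254085 and 311388 CPM (counts scaled to a common library size by the TMM method over the 15 mice) at 3 mo, between 225019 and 277991 in wild type at 19 mo and between 162500 and 257957 in V338Y at 19 mo. Singly, 5 of the 7 were lower and 2 higher at 19 mo in each genotype. The summed markers of endothelium, macrophages, smooth muscle and Schwann cells were higher in every 19 mo mouse than in any 3 mo mouse, and 5 neutrophil markers summed to 545 CPM in V338Y mouse 5 at 19 mo against at most 24.2 CPM in any other mouse. In such tissue fewer cells of a type and less RNA per cell cannot be told apart. Mrps5 itself lay between 21.2 and 27.5 CPM at 3 mo and between 14.96 and 19.3 CPM at 19 mo, a level that does not check the genotype since the allele changes 1 amino acid. The ages also differed in sex-linked transcripts. Every 3 mo mouse carried the Y-linked Ddx3y at 163 to 202 CPM and Xist at no more than 0.575 CPM, while every 19 mo mouse had Xist at 506 to 631 CPM and Ddx3y at no more than 0.083 CPM. The labels give no sex, and the study's methods call the mice female, except that no sex is named for the 19 mo V338Y mice. Age and sex therefore cannot be told apart in any comparison of 3 mo with 19 mo below, in either genotype. The gamma subunit of eIF2 shows this most directly among factor genes: its Y copy Eif2s3y stood at 53.3 to 68.1 CPM at 3 mo and at no more than 0.083 CPM at 19 mo, and its X copy Eif2s3x stood at 18.6 to 22.0 CPM at 3 mo and at 24.3 to 27.7 CPM at 19 mo. Both are left out of the set because they are not autosomal.

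Levels within the set spanned a wide range, here as CPM per kilobase of annotated exon so that genes can be compared. The 3 highest genes were elongation factors: Eef1a2 at 317, Eef2 at 304 and Eef1a1 at 169.5 CPM per kilobase (mean of 15 mice). Together these took between 26.9% and 33.5% of the counts of the 54 genes in a mouse. The ranges of Eef1a2 (278 to 395) and Eef2 (215 to 347) overlapped across mice, whereas Eef1a1 (133 to 253) stayed below every mouse's Eef1a2 with this length. In counts not divided by length, Eef1a1 was above Eef1a2 in V338Y mice 2 and 4 at 19 mo (6060 against 5791 and 6271 against 5815). In every other mouse Eef1a2 had more counts. The highest initiation factor was Eif4a2, a helicase of the cap complex, at 78.4, followed by the scaffold Eif4g1 at 65.0, the helicase cofactor Eif4b at 58.7, the scaffold Eif4g2 at 58.4, the helicase Eif4a1 at 57.1 and Eif1, which guards start codon choice, at 55.6 CPM per kilobase, all with overlapping ranges. The cap-binding protein Eif4e stood at 9.58 and its binding proteins Eif4ebp1 and Eif4ebp2 at 11.2 and 2.82. At the low end Eif5a2, a paralog of Eif5a, had 0.532 CPM per kilobase, and Eif4e1b, the germ-cell paralog of Eif4e, had 0 or 1 count in every mouse and was not tested, which left 53 genes tested in every comparison.

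**Figure D1:**
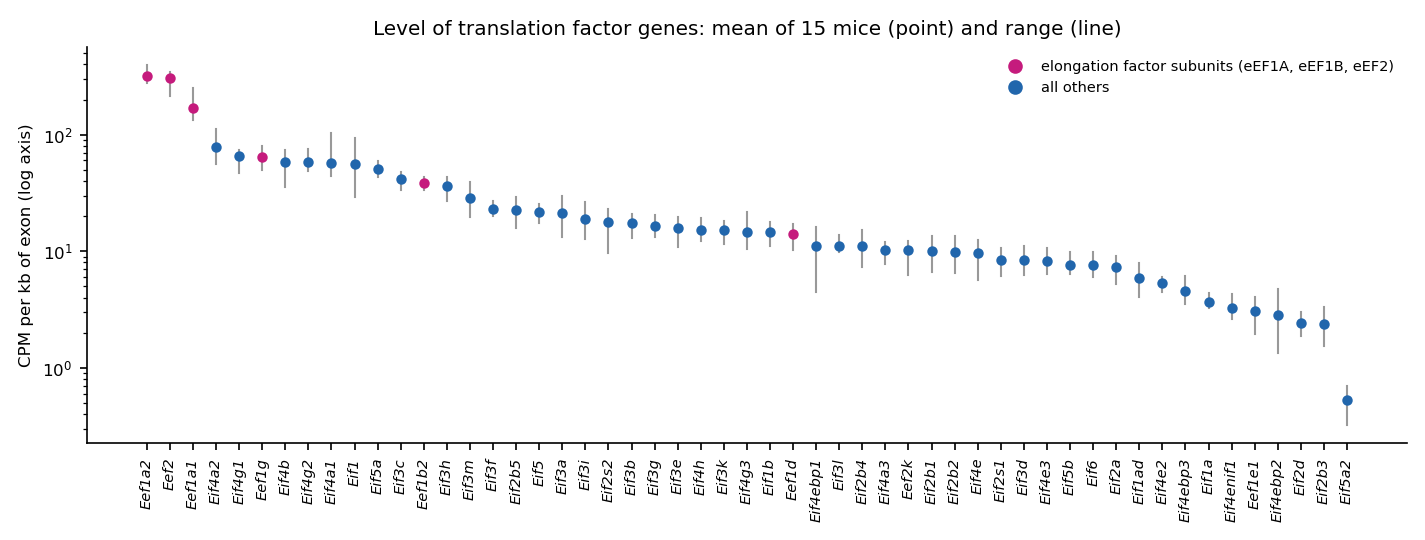
Level of 53 translation factor genes in quadriceps, ordered by the mean over 15 mice, in CPM per kilobase of annotated exon on a log axis. Points are means, lines run from the lowest to the highest mouse, and elongation factor subunits are in magenta. Eef1a2, Eef2 and Eef1a1 lead with 317, 304 and 169.5 CPM per kilobase.

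More of these genes were lower at 19 mo than at 3 mo than were higher. In wild-type mice 26 of the 53 were called (49.1%, against 36.2% of all genes), of which 21 fell (39.6%, against 17.8% of all 13657 genes tested) and 5 rose (9.43%, against 18.3% of all genes), and their median log2 fold change was -0.27 beside 0.02 for all genes. V338Y mice had 35 called (66.0%, against 46.9% of all genes), with 28 that fell (52.8%, against 22.5% of all 13868 genes tested) and 7 that rose (13.2%, against 24.4%), with a median of -0.30 beside 0.07. A gene was called when its edgeR quasi-likelihood test had a Benjamini-Hochberg adjusted p under 0.05 over all genes tested. The 2 age comparisons use different mice. All 5 genes that rose in wild type also rose in V338Y (71.4% of the 7 there), and 20 of the 21 that fell in wild type also fell in V338Y (71.4% of the 28 there). No gene was called in opposite directions, 50 of 53 had the same sign in both genotypes, and 17 were called in neither. Levels of the 2 ages did not overlap for 33 genes in wild type, 7 higher and 26 lower at 19 mo (21.7% of all genes in each direction), and for 39 in V338Y, 6 higher and 33 lower (20.3% and 21.9% of all genes). Without any 1 mouse the calls ranged from 20 to 28 in wild type and from 30 to 35 in V338Y. Of all genes, 1795 to 2471 rose and 1636 to 2366 fell in these wild-type fits. In the V338Y fits 2633 to 3341 of all genes rose and 2549 to 3214 fell. The number of the 53 that rose in V338Y went from 7 to 4 without mouse 3 of either age.

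**Figure D2:**
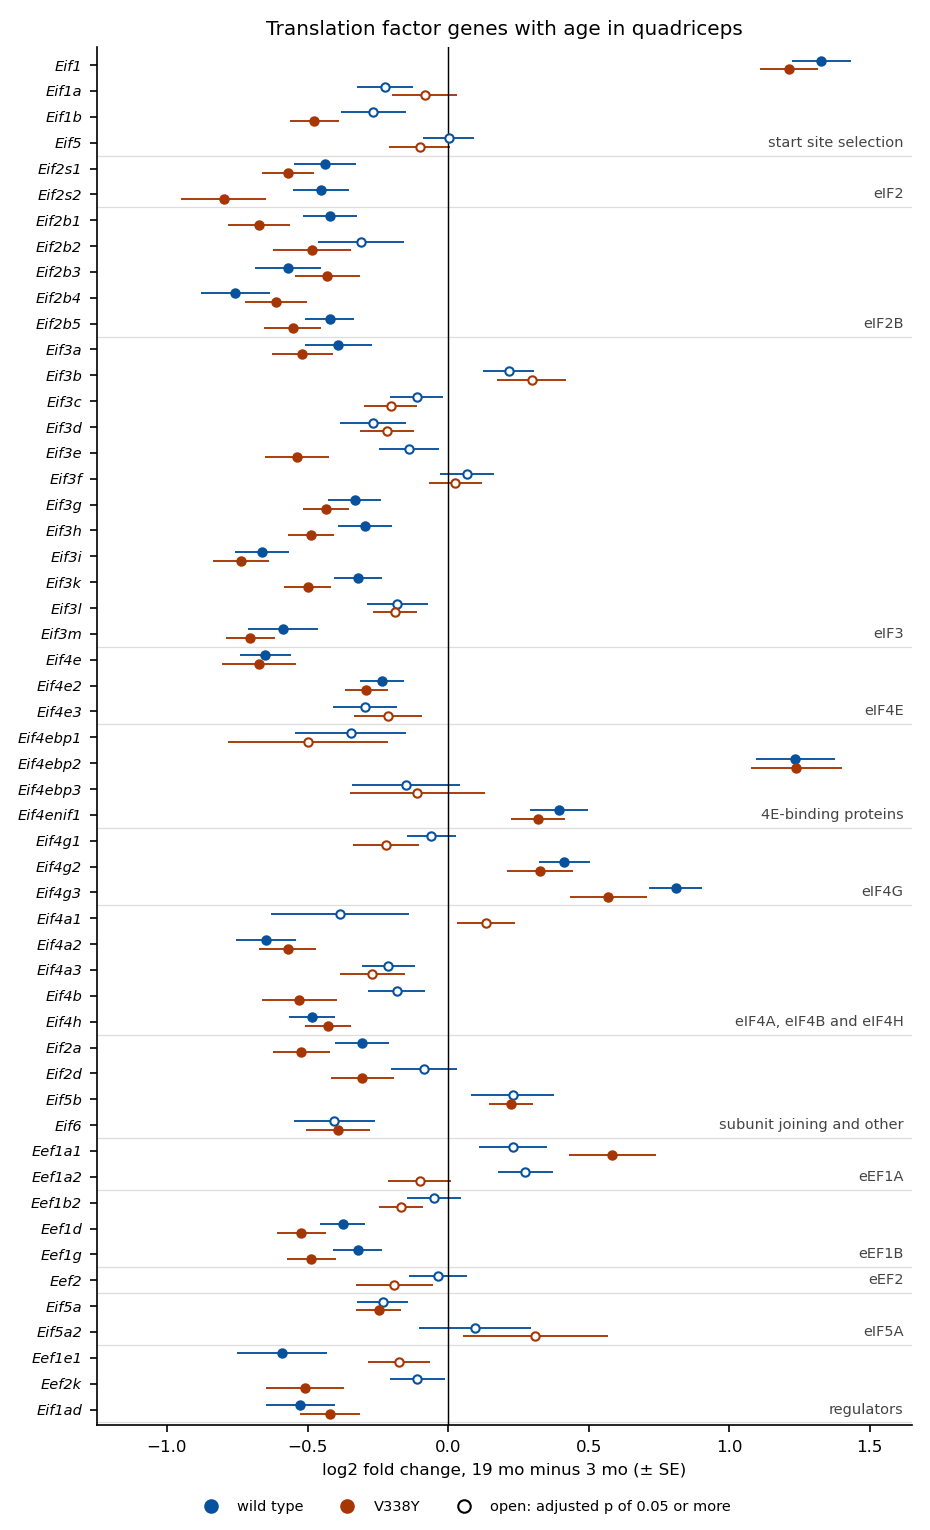
Log2 fold change with age (19 mo minus 3 mo, ± SE) of 53 translation factor genes grouped by role, in wild type (blue) and V338Y (brown). Filled points passed an adjusted p of 0.05 and open points did not. Eif1, Eif4ebp2, Eif4g3 and Eif4g2 lie right of 0 in both genotypes, and all subunits of eIF2 and eIF2B lie left of 0.

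Among the factors of start codon selection, Eif1 rose and the others did not. Eif1 (chr11:100319885-100322096, GRCm38) keeps the scanning ribosome from stopping at poor start codons. It stood at 71.2, 88.8, 76.1 and 66.8 CPM in wild-type mice at 3 mo and at 188, 185 and 197 CPM at 19 mo, a log2 fold change of 1.33 ± 0.11 (SE, adjusted p = 9.65e-05). In V338Y mice it was 69.1, 71.3, 60.7 and 64.8 CPM at 3 mo and 131, 172, 154 and 154 CPM at 19 mo (1.21 ± 0.10, adjusted p = 6.2e-05). Every 19 mo mouse was above every 3 mo mouse, and no other gene of the set had a smaller p in either genotype. The paralog Eif1b went the other way: it fell in V338Y, from 18.8 ± 0.8 to 13.4 ± 0.7 CPM (SD, n = 4 each, log2 fold change -0.48 ± 0.09, adjusted p = 0.0019), and in wild type its log2 fold change was -0.27 ± 0.12 (adjusted p = 0.098). Within a mouse the counts of Eif1 were on average 4.21 times those of Eif1b in wild type at 3 mo and 12.8 times at 19 mo, and 3.52 and 11.3 times in V338Y. Eif5, which makes eIF2 hydrolyse its GTP at the start codon, was level with age in wild type at 156 CPM in both groups (log2 fold change 0.00 ± 0.09, adjusted p = 0.99), and Eif1a also was not called in either genotype (adjusted p = 0.11 and 0.57).

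Both autosomal subunits of eIF2 fell in both genotypes. Eif2s1, the alpha subunit that stress kinases phosphorylate, was 44.5, 48.6, 52.9 and 48.6 CPM at 3 mo and 39.2, 37.9 and 30.4 CPM at 19 mo in wild type (-0.44 ± 0.11, adjusted p = 0.015). V338Y mice had 42.6, 47.6, 50.4 and 51.9 CPM at 3 mo and 31.7, 34.6, 31.5 and 30.7 CPM at 19 mo (-0.57 ± 0.09, adjusted p = 0.0011), so that the ages did not overlap in either genotype. Eif2s2, the beta subunit, fell by 0.45 ± 0.10 on the log2 scale in wild type (adjusted p = 0.0077) and by 0.80 ± 0.15 in V338Y (adjusted p = 0.0024), the lowest log2 fold change of the set there. Its levels in V338Y at 19 mo were 72.8, 108, 81.4 and 64.6 CPM against 129 to 156 CPM at 3 mo. About 11.8% of the read-length windows of Eif2s2 are shared with a processed pseudogene, which itself was given at most 5 counts in a mouse.

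The subunits of the exchange factor eIF2B were lower at 19 mo. All 5 subunit genes fell in V338Y, and 4 of 5 fell in wild type, where Eif2b2 had an adjusted p of 0.14. Eif2b4, the delta subunit, stood at 29.2, 35.4, 39.8 and 37.5 CPM in wild type at 3 mo and at 22.1, 19.1 and 21.8 CPM at 19 mo (-0.76 ± 0.12, adjusted p = 0.0020), which was the lowest log2 fold change of the set in wild type. In V338Y it went from 33.9 ± 3.7 to 22.0 ± 2.5 CPM (SD, n = 4 each, -0.61 ± 0.11, adjusted p = 0.0019). Eif2b5, the catalytic epsilon subunit, fell from 67.1 ± 3.2 (n = 4) to 50.02 ± 3.65 CPM (n = 3) in wild type (-0.42 ± 0.09, adjusted p = 0.0062) and from 67.6 ± 7.4 to 45.7 ± 3.7 CPM in V338Y (-0.55 ± 0.10, adjusted p = 0.0022). The regulatory subunits Eif2b1 (-0.42 ± 0.10 and -0.67 ± 0.11, adjusted p = 0.0090 and 0.0012) and Eif2b2 (-0.48 ± 0.14 in V338Y, adjusted p = 0.018) and the gamma subunit Eif2b3 (-0.57 ± 0.12 and -0.43 ± 0.11, adjusted p = 0.0060 and 0.013) completed these calls. Over the 5 genes the median log2 fold change was -0.42 in wild type and -0.55 in V338Y.

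Subunits of eIF3, the large scaffold that binds the small ribosomal subunit, moved unequally. Of 12 subunit genes 6 fell in wild type (Eif3a, Eif3g, Eif3h, Eif3i, Eif3k and Eif3m) and 7 in V338Y (the same 6 and Eif3e), and none rose. Eif3i was 85.4, 79.8, 84.9 and 94.2 CPM at 3 mo and 58.6, 55.0 and 49.3 CPM at 19 mo in wild type (-0.66 ± 0.10, adjusted p = 0.0012), and 81.2, 97.3, 86.6 and 80.9 CPM against 47.4, 57.7, 53.1 and 47.7 CPM in V338Y (-0.74 ± 0.10, adjusted p = 0.00047). Eif3m fell by 0.59 ± 0.13 in wild type (adjusted p = 0.0070) and by 0.70 ± 0.09 in V338Y (adjusted p = 0.00031), with no overlap of the ages. In V338Y Eif3k fell by 0.50 ± 0.08, Eif3h by 0.49 ± 0.08, Eif3g by 0.43 ± 0.08, Eif3a by 0.52 ± 0.11 and Eif3e by 0.54 ± 0.11 on the log2 scale (adjusted p between 0.0013 and 0.0041). In wild type the log2 fold change of Eif3k was -0.32 ± 0.09 with an adjusted p of 0.019, and it did not pass without mouse 5 at 19 mo (adjusted p = 0.0507) or without mouse 3 at 3 mo (adjusted p = 0.0506). Eif3b, an RNA-binding subunit that sits beside Eif3g and Eif3i in the complex, had positive log2 fold changes of 0.22 ± 0.09 and 0.30 ± 0.12 that did not pass (adjusted p = 0.089 and 0.071). Eif3f was close to 0 in both genotypes (0.07 ± 0.10 and 0.03 ± 0.10), and Eif3c, Eif3d and Eif3l were not called in either.

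At the cap, Eif4e fell while its repressor Eif4ebp2 rose. Eif4e (chr3:138526179-138559696), the protein that binds the mRNA cap, was 72.2, 74.9, 68.3 and 74.99 CPM in wild type at 3 mo and 50.5, 45.4 and 42.6 CPM at 19 mo (-0.65 ± 0.09, adjusted p = 0.00099). V338Y mice had 66.5, 59.6, 68.3 and 73.3 CPM at 3 mo and 43.2, 51.6, 34.0 and 37.7 CPM at 19 mo (-0.67 ± 0.13, adjusted p = 0.0027). Eif4e2, a cap-binding paralog tied to repression, fell less (-0.24 ± 0.08 and -0.29 ± 0.08, adjusted p = 0.043 and 0.011), and Eif4e3 did not pass in either genotype.

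Eif4ebp2 (chr10:61428491-61452661), one of the small proteins that mTOR releases from eIF4E, was low but rose in both genotypes. Its levels in wild type were 11.9, 12.1, 9.75 and 8.98 CPM at 3 mo and 27.0, 21.1 and 27.1 CPM at 19 mo (1.24 ± 0.14, adjusted p = 0.00042). In V338Y the levels were 10.8, 9.91, 7.78 and 9.45 CPM at 3 mo and 16.7, 27.4, 24.4 and 20.4 CPM at 19 mo (1.24 ± 0.16, adjusted p = 0.00039). Again no 3 mo mouse reached any 19 mo mouse. Eif4ebp1, the form most studied as an mTOR target, spread widely at 19 mo: 17.0, 21.4 and 31.2 CPM in wild type and 13.3, 9.79, 24.0 and 27.5 CPM in V338Y, against 23.8 to 35.4 CPM over all 3 mo mice. Its log2 fold changes were -0.35 ± 0.20 and -0.50 ± 0.28 (adjusted p = 0.20 and 0.17). Both passed without mouse 5 at 19 mo, with -0.63 in wild type (adjusted p = 0.019) and -0.75 in V338Y (adjusted p = 0.035). Eif4ebp1 counts were 2.75 times those of Eif4ebp2 in wild type and 2.80 times in V338Y at 3 mo, and 0.901 and 0.784 times at 19 mo. Eif4ebp2 has the longer exons, 5784 against 2196 bases. Per kilobase Eif4ebp1 made up 87.8% and 88.0% of the pair at 3 mo and 70.1% and 66.6% at 19 mo (means of wild type and V338Y). The lowest mouse, V338Y mouse 3 at 19 mo, had 48.5%. Eif4ebp3 stayed below 5 CPM and was not called, and 61.2% of its windows are shared with an overlapping annotated gene. Eif4enif1, which carries eIF4E to the nucleus and to P-bodies, rose in both genotypes (0.39 ± 0.10 and 0.32 ± 0.10, adjusted p = 0.017 and 0.022).

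The 3 scaffolds of the eIF4G family also parted. Eif4g1, the main scaffold, had no call with log2 fold changes of -0.06 ± 0.09 and -0.22 ± 0.12 (adjusted p = 0.61 and 0.15). Eif4g3, its close paralog, was 128, 138, 134 and 115 CPM at 3 mo and 212, 226 and 241 CPM at 19 mo in wild type (0.81 ± 0.09, adjusted p = 0.00048). In V338Y Eif4g3 was 117, 127, 135 and 122 CPM at 3 mo and 148, 180.4, 233 and 174 CPM at 19 mo (0.57 ± 0.14, adjusted p = 0.0081). Eif4g2, a scaffold without the eIF4E-binding site, rose as well (0.41 ± 0.09 and 0.33 ± 0.12, adjusted p = 0.0081 and 0.044), although in V338Y its ages overlapped, with 510 to 565 CPM at 3 mo and 555 to 763 CPM at 19 mo. The counts of Eif4g1 were 3.90 times those of Eif4g3 in wild type and 3.95 times in V338Y at 3 mo, and 2.14 and 2.30 times at 19 mo.

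Of the helicases and their cofactors, Eif4a2 and Eif4h fell in both genotypes. Eif4a2, which had more counts than Eif4a1 in every mouse, was 463, 599, 528 and 497 CPM at 3 mo and 335, 347 and 316 CPM at 19 mo in wild type (-0.65 ± 0.11, adjusted p = 0.0023). V338Y had 452 to 521 CPM at 3 mo and 299 to 345 CPM at 19 mo (-0.57 ± 0.10, adjusted p = 0.0016). Eif4h, a cofactor that helps the helicase, fell by 0.48 ± 0.08 and 0.43 ± 0.08 (adjusted p = 0.0025 and 0.0027). Eif4a1 was not called (-0.38 ± 0.25 and 0.14 ± 0.10, adjusted p = 0.25 and 0.31). Per kilobase its mean share of the pair was 39.0% (3 mo) and 44.3% (19 mo) in wild type and 37.4% and 49.3% in V338Y. One wild-type mouse at 3 mo, mouse 2, had 444 CPM of Eif4a1 against 209 to 258 CPM in the others, and 58.6% of the windows of Eif4a1 are shared with a processed pseudogene that was not among the counted genes. Eif4b, another cofactor of the helicase, fell in V338Y (-0.53 ± 0.13, adjusted p = 0.0099) and was not called in wild type (-0.18 ± 0.10, adjusted p = 0.19). The interaction term for Eif4b did not pass (adjusted p = 0.53). Eif4a3, a core protein of the exon junction complex, was not called in either.

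**Figure D3:**
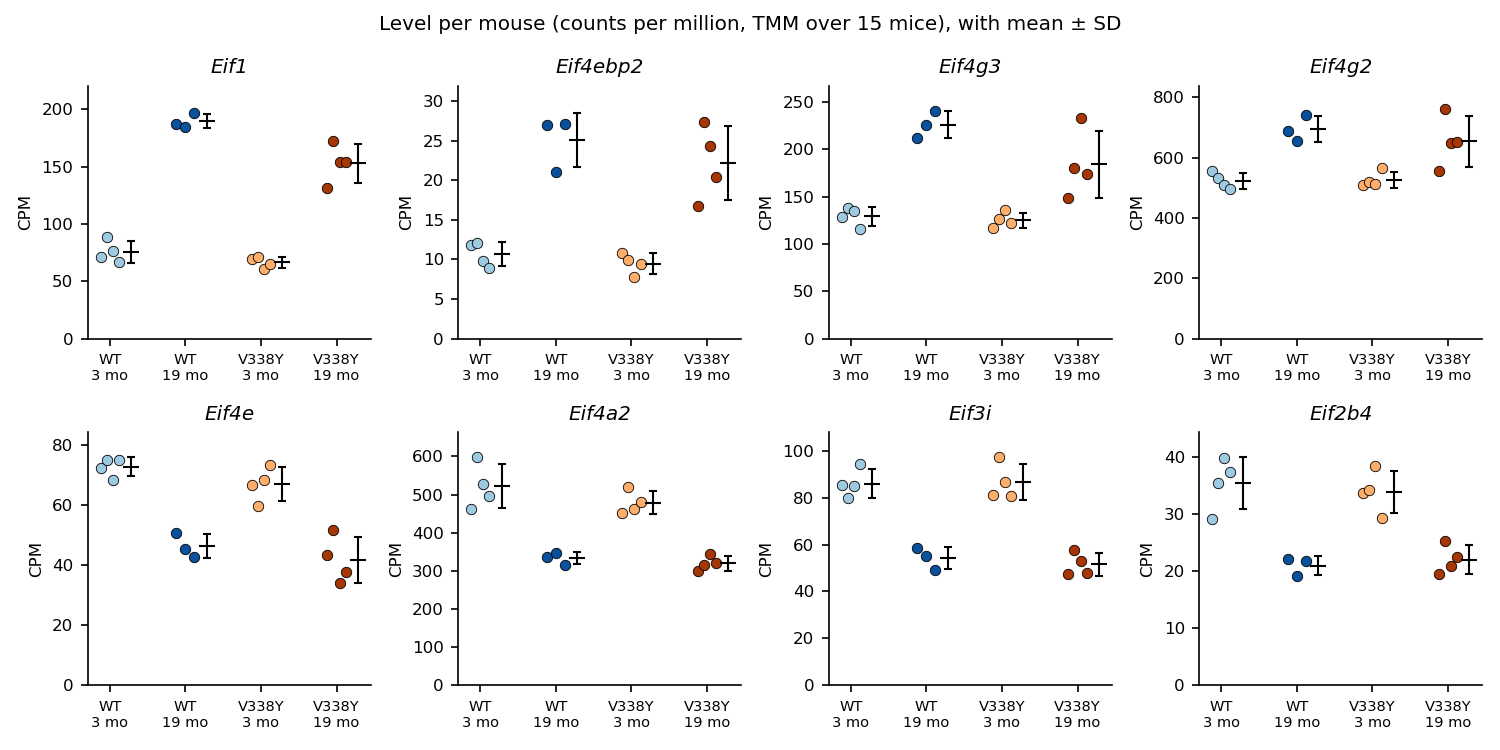
Level per mouse in CPM of 4 genes that rose with age (top row: Eif1, Eif4ebp2, Eif4g3, Eif4g2) and 4 that fell (bottom row: Eif4e, Eif4a2, Eif3i, Eif2b4), with the mean ± SD of each group in black. For 7 of these 8 genes no 3 mo mouse overlaps a 19 mo mouse of its genotype. The exception is Eif4g2 in V338Y, where 1 mouse at 19 mo (555 CPM) lies below the highest at 3 mo (565 CPM).

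Later steps of initiation gave smaller changes. Eif5b, the GTPase that joins the large ribosomal subunit, rose in V338Y from 66.5, 67.7, 62.0 and 63.2 CPM to 71.7, 80.6, 73.6 and 74.4 CPM (0.22 ± 0.08, adjusted p = 0.038). In wild type its difference was of the same size with a wider spread (0.23 ± 0.15, adjusted p = 0.25). Eif6, which keeps the subunits apart until they are ready, fell in V338Y (-0.39 ± 0.11, adjusted p = 0.018) and did not pass in wild type (-0.40 ± 0.14, adjusted p = 0.052). Eif2a, an alternative carrier of the initiator tRNA that is no subunit of eIF2, fell in both (-0.31 ± 0.10 and -0.52 ± 0.10, adjusted p = 0.035 and 0.0026), and Eif2d, which works in recycling and reinitiation, fell in V338Y by a narrow margin (-0.30 ± 0.11, adjusted p = 0.048).

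For the 2 forms of eEF1A, the sequence shared with other genes was looked at first, since it decides how far the genes can be counted apart. Eef1a1 lies at chr9:78478449-78489151 and Eef1a2 at chr2:181147653-181157014, both on the minus strand of GRCm38. Eef1a1 shared 13.7% of its read-length windows with transcripts of 5 processed pseudogenes in GENCODE M21. The 2 of them that were counted received at most 3 counts in a mouse. Eef1a2 shared none with any other gene. Transcripts of many translation genes begin with a run of pyrimidines, which mTOR signalling acts on through LARP1. A search of the RefSeq promoter table (GRCm38.p6) for a C followed by at least 4 bases that are each C or T, on the coding strand and with its first base within 5 bases of the annotated start, found it in 10 of 55 promoters of 41 genes of the set (18.2%), in 18.3% of all 32851 promoters and in 42.5% of 73 promoters of cytosolic ribosomal protein genes. The windows below run from 10 bases before to 20 bases after the annotated start, 5′ to 3′, and capitals mark the run. Pyrimidines that lie further upstream are not marked, even where they adjoin the run. The windows show the eEF1A pair, the gene with the longest run counted from such a first base (Eif3f, 15 bases), a gene of the set that fell in both genotypes (Eif2b5) and the gene with the smallest p (Eif1).
Eef1a1, chr9:78481705-78481734, minus strand: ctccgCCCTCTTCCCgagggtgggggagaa
Eef1a2, chr2:181156996-181157025, minus strand: cctggtctgcgttctcgctcactggttctc
Eif3f, chr7:108934405-108934434, plus strand: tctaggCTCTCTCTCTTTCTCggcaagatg
Eif2b5, chr16:20498807-20498836, plus strand: ctctttCTCTCCCTgcaactacaccttcgc
Eif1, chr11:100319939-100319968, plus strand: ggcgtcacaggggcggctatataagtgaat
Of these 5 annotated starts, Eef1a1 has a run of 10 bases, while Eef1a2 and Eif1 have none at this position. Where the transcripts of these mice begin was not measured. A run in a window, or its absence, is therefore not shown for the transcript itself. Among the 3 genes shown with a run, Eef1a1 rose in V338Y, Eif2b5 fell in both genotypes and Eif3f was not called.

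Eef1a1 rose with age in V338Y mice, where Eef1a2 did not. Eef1a1 was 389, 352, 359 and 331 CPM in V338Y at 3 mo and 607, 405, 629.5 and 480.2 CPM at 19 mo (0.58 ± 0.15, adjusted p = 0.012). All 4 older mice lay above the younger ones, with mouse 3 the closest. In wild type it was 371, 365, 359.9 and 386 CPM at 3 mo and 372, 523 and 409 CPM at 19 mo (0.23 ± 0.12, adjusted p = 0.16). Eef1a2, the muscle form, was 637, 579, 657 and 629 CPM at 3 mo and 824, 739 and 703 CPM at 19 mo in wild type. The ages did not overlap there, yet the adjusted p was 0.053 (0.27 ± 0.10), and it passed in 4 of 15 alternatives, with adjusted p between 0.025 and 0.16. In V338Y Eef1a2 was 714, 645, 686 and 627 CPM at 3 mo and 580.2, 718, 584 and 588 CPM at 19 mo (-0.10 ± 0.11, adjusted p = 0.47).

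The ratio of Eef1a2 to Eef1a1 within each mouse needs no scaling between libraries. On the log2 scale it was 0.78, 0.66, 0.87 and 0.70 in wild type at 3 mo and 1.15, 0.50 and 0.78 at 19 mo. In V338Y it was 0.88, 0.88, 0.93 and 0.92 at 3 mo and -0.07, 0.82, -0.11 and 0.29 at 19 mo. Per kilobase, Eef1a2 made up 66.8% ± 1.4 (SD, n = 4) of the pair in wild type at 3 mo, 67.6% ± 4.9 (n = 3) at 19 mo, 69.1% ± 0.4 (n = 4) in V338Y at 3 mo and 58.3% ± 7.1 (n = 4) at 19 mo. In V338Y the SD of the log2 ratio was 0.03 at 3 mo and 0.43 at 19 mo. In V338Y the mean log2 ratio was 0.67 lower at 19 mo (difference -0.67, p = 0.0286 by exact permutation of the mice, two-sided, and 0.0571 when adjusted over 4 such tests), and the genotypes at 3 mo differed by 0.15 (p = 0.0286, adjusted p = 0.0571, exact). Neither passes after adjustment, although the groups did not overlap in either case. Here 0.0286 is the smallest p that 4 against 4 mice allow. Over the 4 tests no adjusted p under 0.0571 was possible, so neither could have passed. At 19 mo V338Y was lower than wild type by a difference of -0.57 (exact permutation test, p = 0.171, adjusted p = 0.229). Deviations of same-numbered mice correlated at 0.13 to 0.37 at that age, but those of mice with unlike numbers ran from -0.36 to 0.42. A pairing by number is thus not established. Within the 3 same-numbered pairs V338Y was lower each time, by differences of -1.21 to -0.49 (mean -0.77, exact paired permutation test, p = 0.25, the smallest that 3 pairs allow). With age in wild type the difference was 0.06 (exact, p = 0.686), which became -0.11 without wild-type mouse 2 at 19 mo.

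Cell type markers differed between the older V338Y mice. Mouse 3, with the highest ratio of 0.82, had 257957 CPM of fibre markers, and mice 2, 4 and 5, with ratios of -0.07, -0.11 and 0.29, had 162500, 195119 and 181581 CPM, so that the order of these 3 mice by marker sum was not their order by ratio. Among wild-type mice at 19 mo the highest ratio (mouse 2, 1.15) went with the highest sum, 277991 CPM, and the lowest ratio (mouse 4, 0.50) with the lowest sum, 225019 CPM. Summed endothelial markers in the older V338Y mice were 251 CPM in mouse 3 and 275 to 379 CPM in the other mice. The 5 adipocyte markers summed to 154 CPM in mouse 3, 379 CPM in mouse 5, 428 CPM in mouse 2 and 867 CPM in mouse 4, in the reverse order of the ratio in these 4 mice. In wild type at 19 mo the adipocyte sums were 140.4, 226 and 280.1 CPM in mice 2, 4 and 5, which is not the reverse order of the ratio. With age all 5 adipocyte markers had lower levels in wild type (2 called) and higher levels in V338Y (1 called), and in the interaction 0 of 5 passed, with 3 at an unadjusted p under 0.05. The part of cell content in the eEF1A ratio was not tested.

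**Figure D4:**
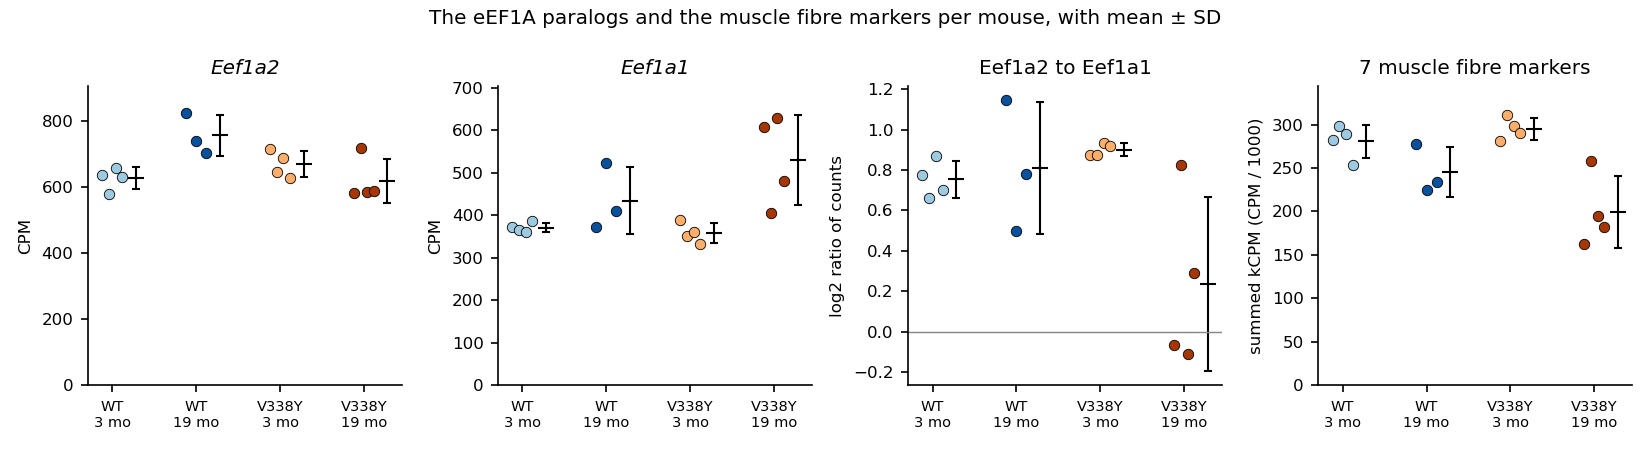
Eef1a2 and Eef1a1 in CPM, the log2 ratio of their counts, and the summed CPM of 7 muscle fibre markers (axis in kCPM), each point 1 mouse, with the mean ± SD of each group in black. In V338Y at 19 mo the ratio runs from -0.11 to 0.82 and the marker sum from 162500 to 257957 CPM, and mouse 3 is the highest in both.

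The remaining elongation factors were lower or level. Eef1d and Eef1g, subunits of the exchange factor eEF1B, fell in both genotypes. Eef1d went from 105 ± 4 (SD, n = 4) to 80.7 ± 3.5 CPM (n = 3) in wild type (-0.38 ± 0.08, adjusted p = 0.0068) and from 104.5 ± 5.3 to 72.1 ± 5.2 CPM in V338Y (-0.52 ± 0.09, adjusted p = 0.0014). Eef1g fell by 0.32 ± 0.09 and 0.49 ± 0.09 (adjusted p = 0.020 and 0.0017), with the limit that 45.3% of its windows are shared with processed pseudogenes. The catalytic subunit Eef1b2 was not called (-0.05 ± 0.10 and -0.17 ± 0.08, adjusted p = 0.71 and 0.11).

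Eef2, the translocase, was 990.4, 1013, 1155 and 1011 CPM in wild type at 3 mo and 937, 1053 and 1055 CPM at 19 mo (-0.04 ± 0.10, adjusted p = 0.81). In V338Y it was 1035, 1089, 1101 and 1023 CPM at 3 mo and 716, 914, 1032 and 1028 CPM at 19 mo (-0.19 ± 0.14, adjusted p = 0.28). Its kinase Eef2k, which slows elongation by phosphorylating eEF2, fell in V338Y from 79.7, 89.7, 89.5 and 90.4 CPM to 56.5, 74.1, 66.3 and 46.2 CPM (-0.51 ± 0.14, adjusted p = 0.014). In wild type Eef2k was 74.4 to 82.8 CPM at 3 mo and 66.6 to 83.2 CPM at 19 mo (-0.11 ± 0.10, adjusted p = 0.41). Eif5a, which carries the hypusine residue, fell in V338Y (-0.25 ± 0.08, adjusted p = 0.030), a call that was lost in 8 of 16 alternatives with adjusted p up to 0.17. Its difference in wild type was of like size (-0.23 ± 0.09, adjusted p = 0.073). Among the regulators taken in by symbol were Eif1ad, which fell in both genotypes (-0.53 ± 0.12 and -0.42 ± 0.11), and Eef1e1, a scaffold of the tRNA synthetase complex that fell in wild type (-0.59 ± 0.16, adjusted p = 0.019) and was not called in V338Y (-0.17 ± 0.11, adjusted p = 0.21).

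Between the genotypes none of the 53 genes was called at either age. At 3 mo edgeR called 0 of 53 (0.075% of all 13333 genes were called), with 1 at an unadjusted p under 0.05 (9.7% of all genes were). DESeq2 also called 0 of 53 (of all 13333 genes it called 36 higher and 30 lower in V338Y). The 5 genes with the smallest p were Eif2d, Eef2k, Eif1, Eif4enif1 and Eif5b. Eif2d was 20.4 ± 1.8 CPM in V338Y and 17.3 ± 1.3 CPM in wild type (SD, n = 4 each, 0.24 ± 0.09, adjusted p = 0.45). The log2 differences of the other 4 were 0.15 ± 0.07 for Eef2k, -0.19 ± 0.09 for Eif1, -0.14 ± 0.08 for Eif4enif1 and -0.19 ± 0.12 for Eif5b (adjusted p between 0.53 and 0.64). Eef1a2 differed by 0.10 ± 0.07 and Eef1a1 by -0.05 ± 0.06 (adjusted p = 0.67 and 0.86). No gene separated the genotypes at 3 mo without overlap (2.48% of all genes were higher and 2.24% lower in V338Y without overlap).

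At 19 mo edgeR again called 0 of 53 (0.0361% of all 13833 genes were higher and 0.00723% lower in V338Y, 0.0434% in all), with 2 genes at an unadjusted p under 0.05 (8.93% of all genes). DESeq2 also called 0 of 53 (of all 13833 genes it called 50 higher and 14 lower in V338Y). Of the 53, 40 were lower in V338Y, and their median log2 difference was -0.10 beside 0.01 for all genes. Eif1 was 153 ± 17 CPM in V338Y (n = 4) and 190.0 ± 6.5 CPM in wild type (n = 3), a log2 difference of -0.29 ± 0.12 (adjusted p = 0.54), and Eif4b was 201 ± 34 and 260.4 ± 10.7 CPM (-0.35 ± 0.15, adjusted p = 0.56). Next by p came Eif3e (-0.31 ± 0.14), Eif4a1 (0.26 ± 0.12) and Eif3a (-0.26 ± 0.13), with adjusted p between 0.56 and 0.57. Eef1a2 differed by -0.26 ± 0.14 and Eef1a1 by 0.32 ± 0.21 (adjusted p = 0.59 and 0.66). Groups did not overlap for 7 genes, with Eif4a1 higher in V338Y and Eif1, Eif4b, Eif3a, Eif2b1, Eif4enif1 and Eif4g1 lower. That is 1 of 53 higher where 4.51% of all genes were, and 6 of 53 lower where 5.28% of all genes were. Summed muscle fibre markers were lower in 3 of the 4 V338Y mice than in any wild-type mouse of that age. Singly, 5 of the 7 fibre markers were lower and 2 higher in V338Y (log2 differences -0.36 to 0.54). Of these 7, 0 had an unadjusted p under 0.05. Adipocyte, erythroid and neutrophil markers had median log2 differences (V338Y minus wild type) of 1.10 (5 of 5 markers higher, 1 at an unadjusted p under 0.05), 1.68 (3 of 3 higher, 3 under 0.05) and 6.75 (5 of 5 higher, 5 under 0.05), and 0 of these markers passed after adjustment in edgeR. Erythroid sums were 74.4 to 121 CPM in wild type and 127 to 597 CPM in V338Y. Neutrophil sums were 2.07 to 4.30 CPM in wild type and 2.30, 24.2, 4.42 and 545 CPM in V338Y mice 2, 3, 4 and 5. The neutrophil difference thus rests mostly on mouse 5. The part of these cell types in the members' differences was not tested.

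The age effects themselves were compared by an interaction term over all 15 mice, and 0 of 53 genes passed with edgeR and 0 with DESeq2. Of all 14128 genes 0 passed with edgeR, while DESeq2 called 22 with a positive and 6 with a negative term. At an unadjusted p under 0.05 stood 4 of the 53 (9.63% of all genes). These were Eef1a2 (-0.39 ± 0.14, adjusted p = 0.46), Eif3e (-0.41 ± 0.15, adjusted p = 0.47), Eef2k (-0.41 ± 0.18, adjusted p = 0.49) and Eef1e1 (0.41 ± 0.19, adjusted p = 0.51), where a negative value is a lower 19 mo level relative to 3 mo in V338Y than in wild type. The calls made in 1 genotype alone (Eef1a1, Eif5b, Eef2k, Eif1b, Eif2b2, Eif2d, Eif3e, Eif4b, Eif5a and Eif6 in V338Y, Eef1e1 in wild type) are thus not shown to differ between genotypes.

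**Figure D5:**
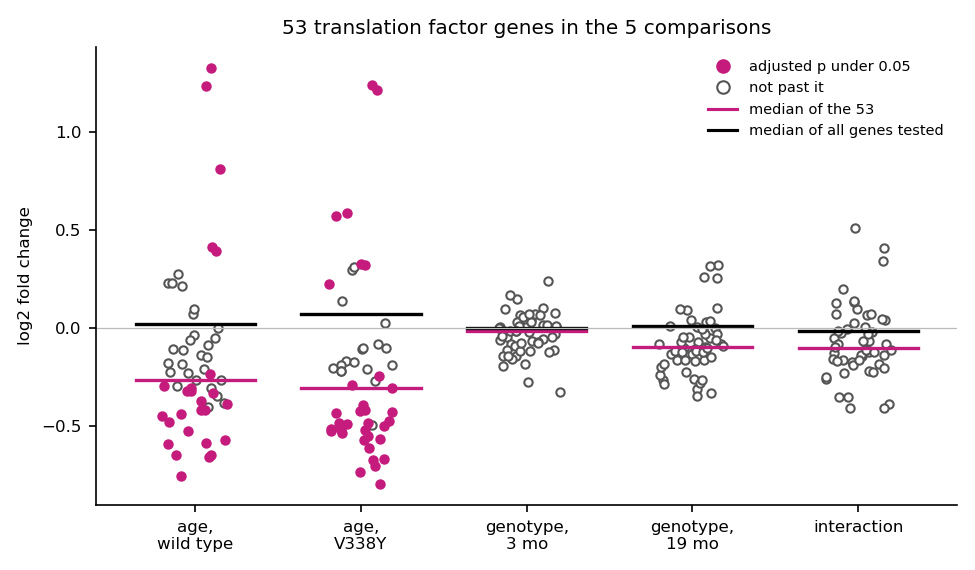
Log2 fold change of the 53 genes in the 5 comparisons, 1 point a gene, filled where the adjusted p was under 0.05. Magenta bars give their median and black bars that of all genes tested: -0.27 and 0.02 with age in wild type, -0.30 and 0.07 with age in V338Y, -0.02 and 0.00 between genotypes at 3 mo, -0.10 and 0.01 at 19 mo, and -0.10 and -0.01 for the interaction.

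Other genes of the same pathway are described by their counts in the same fits, beside the 17.8% of all genes that fell and 18.3% that rose in wild type and the 22.5% and 24.4% in V338Y. Of 80 tested cytosolic ribosomal protein genes 17 fell (21.2%, near the share of all genes) and 0 rose in wild type (31 of 80 had an unadjusted p under 0.05 in either direction, against 47.2% of all genes), and 54 fell (67.5%) and 1 rose (1.25%) in V338Y, with medians of -0.21 and -0.35. The calls with the smallest p included Rpl3l, the muscle paralog of Rpl3, in wild type (261 ± 13 to 179 ± 16 CPM, log2 fold change -0.55 ± 0.09, adjusted p = 0.0025) and Rpl36 in V338Y (107 ± 2 to 67.9 ± 5.5 CPM, -0.64 ± 0.09, adjusted p = 0.00053). Of 22 genes for cytosolic aminoacyl-tRNA synthetases and their scaffolds 12 fell (54.5%) and 2 rose (9.09%) in wild type, and 17 fell (77.3%) and 1 rose (4.55%) in V338Y. Sars, the seryl-tRNA synthetase, fell in both (-0.57 ± 0.09 and -0.71 ± 0.08, adjusted p = 0.0019 and 0.00026), whereas Vars, the valyl-tRNA synthetase, rose in both (0.63 ± 0.10 and 0.63 ± 0.14, adjusted p = 0.0016 and 0.0057). Of 8 termination and recycling genes, Eif2d included, 4 fell and 0 rose in wild type (5 had an unadjusted p under 0.05), and 6 fell and 1 rose in V338Y (50% fell in wild type and 75% in V338Y), among them Etf1, the release factor eRF1 (-0.40 ± 0.09 and -0.61 ± 0.11, adjusted p = 0.0068 and 0.0014).

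Of 22 tested cap and poly(A) partners and signalling genes, 6 rose (27.3%, against 18.3% of all genes) and 8 fell (36.4%, against 17.8%) in wild type. In V338Y 6 rose (27.3%, near the 24.4% of all genes) and 7 fell (31.8%, against 22.5%). Rptor, the mTORC1 subunit that recruits 4E-binding proteins, rose from 21.9 ± 1.2 (SD, n = 4) to 43.0 ± 5.7 CPM (n = 3) in wild type (0.98 ± 0.11, adjusted p = 0.00036) and from 22.5 ± 1.3 to 41.5 ± 2.2 CPM in V338Y (0.90 ± 0.08, adjusted p = 9.6e-05). Larp1 (0.68 ± 0.08 and 0.48 ± 0.11, adjusted p = 0.00046 and 0.0068) and Tsc2, an inhibitor of mTORC1 (0.73 ± 0.08 and 0.64 ± 0.10, adjusted p = 0.00036 and 0.0011), rose in both genotypes. Paip1, a partner of the poly(A)-binding protein, fell in both (-0.42 ± 0.09 and -0.76 ± 0.10, adjusted p = 0.0062 and 0.00035). Of 12 tested genes that modify eIF5A or the elongation factors 3 fell in each genotype (25%, against 17.8% and 22.5% of all genes) and 0 rose (3 and 5 had an unadjusted p under 0.05), among them Dph3, needed for the diphthamide of eEF2 (-0.49 ± 0.10 and -0.83 ± 0.12, adjusted p = 0.0051 and 0.00057). Of 12 eIF2 kinases and stress response genes 2 rose and 2 fell in wild type (16.7% each, near the 18.3% and 17.8% of all genes), and 1 rose and 1 fell in V338Y (8.33% each, below the 24.4% and 22.5% of all genes). Atf4, the transcription factor whose translation rises when eIF2 is phosphorylated, fell from 166 ± 18 to 106 ± 6 CPM in wild type and from 161 ± 5 to 84.7 ± 5.0 CPM in V338Y (-0.65 ± 0.10 and -0.91 ± 0.08, adjusted p = 0.0020 and 7.6e-05). None of these lists had a gene called between genotypes at 3 mo or at 19 mo or in the interaction by edgeR.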

How the data were processed

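Total RNA of quadriceps muscle had been sequenced as single reads with a stranded kit. Per the labels' processing notes the submitters used CASAVA 1.8, bcl2fastq 1.8.4 and STAR 2.4.2a with build GRCm38, and the study's methods name RSEM on Ensembl annotation. The deposited values are expected counts per gene, given by the authors as whole numbers and not normalized. Reads that fit several genes are shared out by an estimate in such counts, so that levels of near-identical genes are uncertain. Depth was 8250653 to 18968132 counts per mouse.

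The counts were tested in edgeR 4.0.16 (R 4.3.3) with TMM scaling and the quasi-likelihood test on the 2 groups compared, or on all 15 mice for the interaction. A gene was kept if 50% or more of the mice in 1 compared group had no fewer than 10 counts. Adjusted p-values are Benjamini-Hochberg over all genes tested, and the threshold was 0.05. Fold changes are log2 and errors SE unless named SD. The eEF1A ratio is log2 of counts with 0.5 added. The fit was also run on simulated counts with known changes in a small part of the genes and the same dispersion (spread) for every gene. These settings differ from the present data, so the run gives no error rate for them. Replicates are separate mice.

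Members and gene lists were chosen with earlier results of these data known. The 9 factors always named were Eef1a1, Eef1a2, Eef2, Eef2k, Eif4e, Eif4ebp1, Eif4g1, Eif2s1 and Eif5a. For each comparison the rule added the 20 called members with the smallest p (5 where fewer than 5 were called) and up to 3 called genes of each other list. Further members are named to complete a role. Ensembl IDs were matched to GENCODE M21 (37607 of 39179). The share of read-length windows of protein-coding transcripts found in other genes' GENCODE transcripts was counted for each member. Alternatives were other scalings, filters and tools, leaving out mice, and the mouse number as a block. In the comparison of genotypes at 19 mo the deviations of same-numbered mice from the group means correlated positively (3 pairs, 0.13 to 0.37). The 9 pairs of unlike number ran from -0.36 to 0.42. This is at most a hint from the data, since the labels do not say what the number marks. In the other comparisons the same-numbered correlations were not all positive.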

Additional observations from a re-analysis of the deposited data

Results flagged for a closer look

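Within groups of 4 mice, 162 sets of values were examined for a mouse far from the others (Dixon's test at the 95% level, 53 genes and the eEF1A ratio in 3 groups), and 7 had one. Chance flags about 1 in 20, or 8.1 of 162. Eef1a2 stood at 718 CPM in V338Y mouse 3 at 19 mo, against 580.2 to 588 CPM in the other mice of the group, and Eif5a stood at 117 CPM in the same mouse against 105 CPM in each of the others. In wild-type mouse 3 at 3 mo Eef2 was 1155 CPM against 990.4 to 1013 CPM, and Eif4g1 was 544 CPM against 488 to 493 CPM. Eif4g2 was 565 CPM in V338Y mouse 4 at 3 mo against 510 to 518 CPM. At the low side, Eef2k was 79.7 CPM in V338Y mouse 1 at 3 mo against 89.5 to 90.4 CPM, and Eif3f was 59.1 CPM in V338Y mouse 3 at 3 mo against 65.6 to 66.7 CPM.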

How the results depend on the processing

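Under other scalings, filters, DESeq2 and a fit of all mice, the called genes numbered 25 to 30 with age in wild type (26 as reported) and 30 to 36 in V338Y (35 as reported). Leaving out 1 mouse at a time gave 20 to 28 and 30 to 35. Without the 7 regulators 22 and 31 were called. Without a filter the median of all genes in V338Y moved from 0.07 to 0.25. A replicate block on mouse numbers left 9 genes called in wild type (3 rose, 6 fell), all 9 among the 26, where only 2 numbers are shared, and 29 in V338Y. In both age comparisons the block also lowered the calls over all genes. In wild type 1191 rose and 1038 fell with it, against 2505 and 2435 as reported. In V338Y 2897 rose and 2608 fell, against 3389 and 3116. Deviations of same-numbered mice correlated at -0.0086 and -0.0011 in the wild-type age comparison and at -0.13 to 0.01 in that of V338Y. With 2 and 3 pairs this cannot tell whether such mice share more than a number. Between genotypes at 19 mo the block changed no call of the set. Over all genes 97 were higher and 13 lower in V338Y with it, against 5 and 1 as reported. Same-numbered mice correlated there at 0.13 to 0.37 and mice of unlike number at -0.36 to 0.42, so a pairing is not established. At 3 mo 4 of all genes were higher and 10 lower with the block, against 5 and 5. In the interaction 24 had a positive and 4 a negative term, against 0 and 0. Of the set, the block gave 0 genes for both genotype comparisons and the interaction, as did every alternative. Leave-one-out counts were 0 to 0. Of 20 named called genes in wild type 9 passed in every alternative, and of 23 in V338Y 22 did. No called gene reversed.

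The eEF1A ratio did not pass 0.05 after adjustment in any setting. It could not have done so, since with these numbers of mice the exact test allows no adjusted p under 0.0571. Leaving out a mouse gave differences of -0.11 to 0.21 with age in wild type, where omitting mouse 2 at 19 mo reversed the sign (-0.11), of -0.86 to -0.55 with age in V338Y, of 0.12 to 0.19 between genotypes at 3 mo and of -0.77 to -0.41 at 19 mo. Over same-numbered pairs the differences were 0.14, -0.69, 0.15 and -0.77, and 2, 3, 4 and 3 pairs allow no p under 0.5, 0.25, 0.125 and 0.25. Adding Eef1a1 pseudogenes by name was not run, as no counted gene carries such a name. Adding the counted pseudogenes that share windows, chosen after seeing the data, left all 4 differences at 0.06, -0.67, 0.15 and -0.57. This could not have moved them, since these pseudogenes had at most 3 counts in a mouse. The other pseudogenes that share windows were not among the counted genes, so the effect of shared reads was not tested. Depth limits Eif4e1b, Eif5a2 and Eif4ebp3 most.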
